A study of Mus musculus with 7 samples.

Results

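The regions described here are stretches of open chromatin in the embryonic mouse gut that had a peak in the hindstomach at embryonic day 16 (E16) and in the E16 stomach labelled as a Sox2 knockout, and in none of the other 5 libraries. Peaks of all 7 lists on chromosomes 1 to 19 and X were merged wherever they overlapped by at least 1 bp, and a merged region was kept if exactly those 2 libraries had a peak in it. This gave 3403 of 326695 regions, or 1.04% (95% Wilson interval 1.01 to 1.08). They made up 3.13% (3.03 to 3.24) of the 108720 hindstomach regions and 3.27% (3.16 to 3.38) of the 104039 knockout (KO) regions. The members were chosen by the presence and absence of peaks, so these counts are a description and were not tested.

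The series measured chromatin accessibility by ATAC-seq, in which a transposase cuts and tags DNA that is not wrapped tightly by nucleosomes, and each library came as a list of peak positions without heights. Each group had 1 library: E13 (embryonic day 13) intestine and stomach, 4 wild-type tissues at E16, namely colon, forestomach, hindstomach and proximal small intestine (called intestine below), and a stomach at E16 labelled as Sox2 KO. Wild-type cells came from ShhCre; R26YFP/+ embryos, in which a Cre recombinase expressed from the Shh gene switches on a yellow fluorescent reporter in gut epithelium. At E13 whole organs were digested with trypsin and the labelled cells of several pooled embryos were sorted. At E16 the epithelium was freed first, the forestomach with dispase and collagenase and the hindstomach, intestine and colon with EDTA. The Cre driver, the allele, the part of the stomach and the isolation of the KO library are not stated in the sources used here, so genotype and preparation cannot be told apart in it. With 1 library per group no difference between groups has a replicate check, and intervals cover counting error only.

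The hindstomach is the glandular part of the mouse stomach, whose epithelium forms pits and glands with mucous, acid-secreting, zymogen-secreting and endocrine cells, whereas the forestomach becomes a stratified squamous epithelium like that of the oesophagus. SOX2, a transcription factor, is made in both parts of the stomach and in other foregut organs and is absent from the intestine, where CDX2 holds the corresponding place. Open regions away from gene starts are often enhancers, which transcription factors occupy and which differ more between tissues than promoters do.

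The labels were compared with open chromatin at marker genes, counting a marker when a peak lay within 1 kb of either end of the gene. All 17 pan-epithelial markers had such a peak in the hindstomach and in the KO library. Of 20 glandular stomach markers, 14 had one in the hindstomach and 17 in the KO, against 12 in the forestomach and between 5 and 9 in the other 4 libraries. Squamous markers had one at 13 of 20 in E13 stomach, 12 in the KO, 11 in the forestomach and 9 in the hindstomach. Enterocyte markers had one at 14 of 24 in the KO and in the intestine, 13 in both E13 libraries and 11 in the hindstomach. Markers of other cells were also open at gene ends: mesenchyme at 8 of 20 in the hindstomach and 14 of 20 in the KO, neural crest and neurons at 8 and 14 of 15, endothelium at 7 and 9 of 15, and blood and immune cells at 4 and 8 of 19. For mesenchyme, E13 intestine also stood at 14 and E13 stomach at 11. Pecam1 and Cdh5, markers of endothelium, had no gene-end peak in any of the 7 libraries. Ptprc, a marker of blood, had one in colon alone. Other markers of these lists did differ between the hindstomach and the KO. Flt1 and Sox18 of the endothelial list had a gene-end peak in the KO and not in the hindstomach. The same held for Cd79a, Klf1, Hba-a1 and Lyz2 of the blood and immune list. No marker of either list showed the reverse. Peaks on chromosome Y numbered 69 in the KO library against 565 to 1111 in the 4 wild-type E16 libraries and 178 and 187 in E13 stomach and E13 intestine, and the sexes of the embryos are not given here. Read depth is unknown, and the lists held 113117 hindstomach and 107067 KO peaks, within the range of 81179 to 135743 over the 7 libraries.

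Within 1 kb of a gene start lay 8.43% of members (7.55 to 9.41), against 7.87% of all regions. Regions of hindstomach alone stood at 4.55% and regions of KO alone at 8.09%. Where a member overlapped a promoter, the sequence of the shared part could be read. Of the 3403 members, 92 (2.70%) overlapped a RefSeq promoter window, defined as 250 bases before to 50 bases after a start, and they touched 95 of 32619 windows (0.291%). These windows belonged to 94 genes, among them 57 of 17274 protein-coding genes, and 38 of the windows were those of long non-coding RNAs. At 18 protein-coding genes the start itself lay under both peaks. The windows below, from RefSeq on GRCm38.p6, are printed 5′ to 3′ along the gene with the bases under both peaks in capitals. For the capitals and the counts of window bases, peak positions were taken as counted from 1, with both end bases included. Were they counted from 0, the left edge of the capitals on the genome would move by 1 base. Widths and overlaps in bp are end minus start, which is 1 less than a count with both end bases. Pgc and Fgf2 are shown because they are the listed genes with a member over the promoter. Cybrd1, Selenbp2 and Otos, among the windows with the most shared bases over a start, and Cyp2c65, the window with an HNF4 motif, were chosen after their values were seen.

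Pgc: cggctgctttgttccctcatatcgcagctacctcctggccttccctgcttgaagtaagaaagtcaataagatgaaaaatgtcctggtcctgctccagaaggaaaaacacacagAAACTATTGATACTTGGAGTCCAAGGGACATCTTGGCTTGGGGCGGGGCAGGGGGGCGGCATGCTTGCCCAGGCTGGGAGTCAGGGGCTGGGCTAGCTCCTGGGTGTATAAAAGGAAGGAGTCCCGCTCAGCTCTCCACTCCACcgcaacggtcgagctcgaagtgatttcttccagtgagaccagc
Fgf2: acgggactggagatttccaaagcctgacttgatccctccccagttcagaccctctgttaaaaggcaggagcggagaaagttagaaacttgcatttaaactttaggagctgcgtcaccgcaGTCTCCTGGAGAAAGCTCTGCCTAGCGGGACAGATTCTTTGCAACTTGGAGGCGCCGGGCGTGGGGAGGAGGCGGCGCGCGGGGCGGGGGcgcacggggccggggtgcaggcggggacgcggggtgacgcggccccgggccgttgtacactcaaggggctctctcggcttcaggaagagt
Cybrd1: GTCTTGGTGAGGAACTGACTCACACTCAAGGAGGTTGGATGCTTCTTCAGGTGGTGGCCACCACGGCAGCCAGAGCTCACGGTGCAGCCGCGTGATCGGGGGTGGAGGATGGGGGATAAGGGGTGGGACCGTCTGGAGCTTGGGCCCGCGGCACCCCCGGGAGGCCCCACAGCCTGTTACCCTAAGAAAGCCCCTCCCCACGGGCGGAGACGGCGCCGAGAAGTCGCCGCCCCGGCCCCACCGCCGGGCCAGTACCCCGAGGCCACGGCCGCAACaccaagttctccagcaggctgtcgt
Selenbp2: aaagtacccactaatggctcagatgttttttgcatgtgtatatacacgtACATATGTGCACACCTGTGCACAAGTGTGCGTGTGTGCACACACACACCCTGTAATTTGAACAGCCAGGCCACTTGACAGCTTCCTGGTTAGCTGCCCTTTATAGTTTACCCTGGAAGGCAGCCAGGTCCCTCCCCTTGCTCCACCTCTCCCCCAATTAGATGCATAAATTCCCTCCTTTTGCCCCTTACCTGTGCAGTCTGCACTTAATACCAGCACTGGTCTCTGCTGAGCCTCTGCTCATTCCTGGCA
Otos: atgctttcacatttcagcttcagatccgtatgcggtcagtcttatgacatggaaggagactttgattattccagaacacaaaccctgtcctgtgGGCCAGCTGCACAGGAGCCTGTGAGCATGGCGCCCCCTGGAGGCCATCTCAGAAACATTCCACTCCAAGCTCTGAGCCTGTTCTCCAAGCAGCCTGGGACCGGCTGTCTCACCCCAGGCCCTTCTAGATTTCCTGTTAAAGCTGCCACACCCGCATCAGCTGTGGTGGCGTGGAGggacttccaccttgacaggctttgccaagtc
Cyp2c65: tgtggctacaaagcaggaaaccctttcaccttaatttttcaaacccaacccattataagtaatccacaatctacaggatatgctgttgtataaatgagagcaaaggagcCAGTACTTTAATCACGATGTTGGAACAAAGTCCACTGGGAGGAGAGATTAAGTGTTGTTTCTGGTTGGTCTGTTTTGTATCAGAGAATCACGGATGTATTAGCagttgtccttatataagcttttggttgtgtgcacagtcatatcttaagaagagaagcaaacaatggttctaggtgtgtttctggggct

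The Pgc window lies at chr17:47726592-47726891 on the plus strand. Pgc encodes progastricsin (pepsinogen C), a zymogen secreted by gastric glands. The hindstomach peak ran from -137 to +80 relative to the start (47726705 to 47726922) and the KO peak from -282 to +6 (47726560 to 47726848), so the KO peak reached further upstream and the hindstomach peak further into the gene. The 144 bases under both peaks contained a TATA box motif at bases 220 to 225 of the window, from -31 relative to the start. Only 3 regions of the whole series were assigned to Pgc. Besides the member, 1 was open in E13 stomach and KO and 1 in E13 stomach alone. By the rule, the member at the Pgc start held a peak of no list but those of hindstomach and KO.

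The Fgf2 window is chr3:37348403-37348702 on the plus strand. FGF2 is a secreted growth factor that binds FGF receptors. The hindstomach peak covered 89 bp, the smallest width in that list, from -130 to -41 relative to the start, and lay inside a KO peak of 152 bp that ran from -135 to +17. A region open in KO alone followed at 37348867 to 37349034. Of the 5 further Fgf2 regions, 1 was open in hindstomach and 1 in KO.

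Cybrd1 encodes duodenal cytochrome b, an iron reductase of the brush border, and its window is chr2:71117804-71118103 on the plus strand. Both peaks were wide there, 333 bp in the hindstomach and 312 bp in the KO, and 275 of the 300 bases of the window lay under both. Selenbp2, a selenium-binding protein gene (chr3:94693323-94693622, plus strand), had a hindstomach peak of 298 bp wholly inside a KO peak of 546 bp. Otos, which encodes the inner ear protein otospiralin (chr1:92648792-92649091, minus strand), had peaks of 174 and 214 bp, again with the hindstomach peak inside. Cyp2c65 encodes a cytochrome P450, and its window (chr19:39060756-39061055, plus strand) held the HNF4 motif CAAAGTCCA at bases 135 to 143, within the part under both peaks and from -116 relative to the start. It was the single HNF4 match among the 95 windows.

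**Figure D1:**
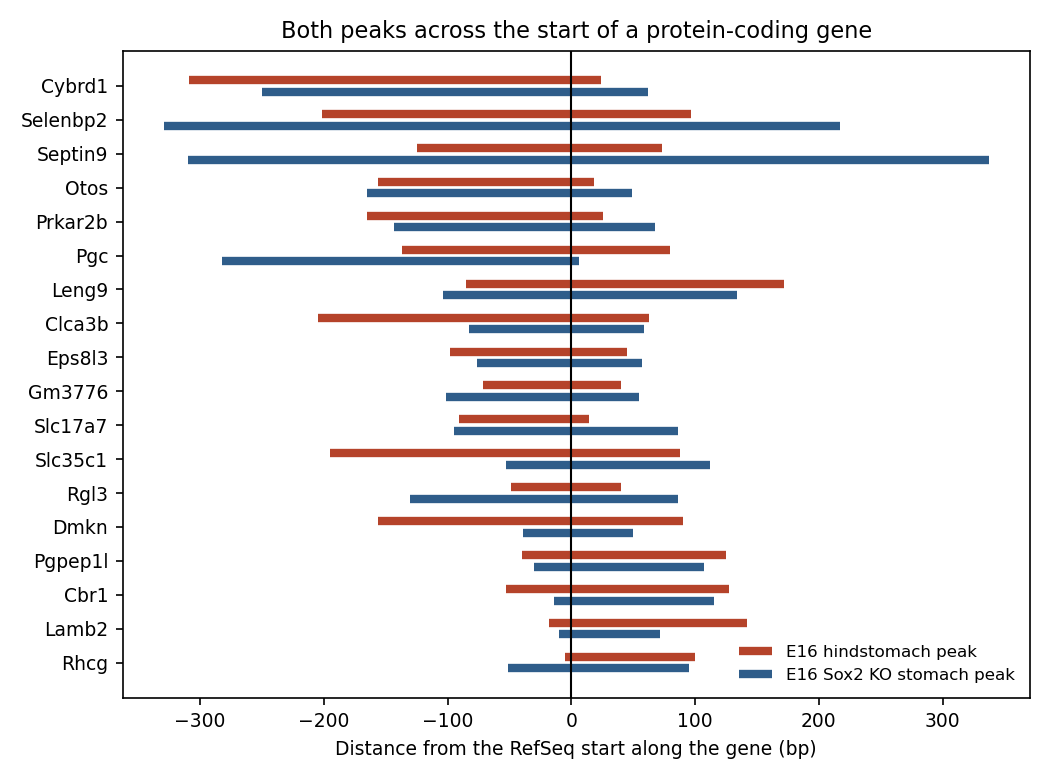
Positions of the hindstomach peak (red) and the KO peak (blue) relative to the RefSeq start (0 on the x axis, in bp along the gene) at the 18 protein-coding genes whose start lay under both peaks. Genes are sorted by the number of promoter bases under both peaks, with Cybrd1 at the top. The Septin9 KO peak, from -310 to +337, was the widest.

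The plot of peaks across gene starts shows how unevenly the boundaries matched. At Eps8l3 the hindstomach peak ran from -98 to +45 and the KO peak from -76 to +57, whereas at Septin9, a cytoskeletal GTPase gene, a hindstomach peak of 198 bp sat inside a KO peak of 647 bp. Other genes with both peaks over the start were Rhcg, an ammonium transporter of epithelia, Slc35c1, the GDP-fucose transporter of the Golgi, Prkar2b, a regulatory subunit of protein kinase A, Lamb2, a laminin chain, Dmkn, a secreted epidermal protein, and Cbr1, a carbonyl reductase. For 16 of the 57 protein-coding genes the RefSeq table held a further window. At Daam1, Pfkm, Prkar2b and Slc35c1 such a window was open in all 7 libraries, so the member lay at an alternative start of a gene with another start open throughout.

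The promoter windows that members touched were of ordinary base composition. Their median GC content was 54.3% (quartiles 49.2 and 59.5), against 53.0% over all windows and 62.3% over windows open in all 7 libraries. Their median ratio of observed to expected CpG was 0.392, against 0.387 and 0.814. They thus lay close to the whole table and below the windows open in all libraries.

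Motif letters were counted on both strands of the windows. ETS (CAGGAAG) occurred in 20 of 95 windows, 21.1% (14.1 to 30.3), against 13.4% of all windows and 11.3% of those open in all 7 libraries. KLF (CCACACCC or GGGCGTG) occurred in 22.1% (14.9 to 31.4), against 11.7% of all windows and 22.8% of those open in all 7. NFY (CCAAT) was less frequent than in either set, at 24.2% (16.7 to 33.7) against 37.6% and 44.5%. These 3 shares were those whose intervals left out the share over all windows.

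The SOX letters (ACAATG or ACAAAG) were found in 30.5% of the members' windows (22.2 to 40.4) and in 28.3% of all windows. The motif of GATA factors, AGATAA or TGATAA, stood at 15.8% against 18.6%, TEAD (CATTCC) at 18.9% against 14.6%, AP-1 (TGANTCA) at 9.47% against 7.85%, and CDX (TTTATNG) at 6.32% against 10.9%. FOX (TGTTTAC) was at 3.16% against 3.67%, GRHL (AACCNGTT or AACNGGTT) at 3.16% against 2.10%, and HNF4 at 1.05% against 0.478%. The HNF1 motif was in none of the 95 windows, with an upper bound of 3.89%, and in 0.0613% of all windows. TATAAA, a motif added after the Pgc window was read, stood at 12.6% (7.38 to 20.8) against 13.7%. Some motifs share letters: ACAAAG overlaps CAAAGTCCA by 5 bases, and TATAAA read on the other strand can be part of TTTATNG. A match is a description of letters, not a bound site.

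Most members lay away from genes' ends. Within 1 kb of an end of a protein-coding gene were 316 members, 9.29% (8.36 to 10.3), and 1882 (55.3%, 53.6 to 57.0) lay in a gene body. A further 36.0% lay outside gene bodies but within 100 kb, and 295 (8.67%, 7.77 to 9.66) lay beyond that. Regions of hindstomach alone were at gene ends in 5.34% (5.01 to 5.69), in gene bodies in 45.7% and beyond 100 kb in 18.4%. Regions of KO alone stood at 8.29%, 54.5% and 12.5%. In these 3 shares the members were nearer to the KO-only than to the hindstomach-only regions. Outside gene bodies but within 100 kb the order was the reverse, with 35.9% of hindstomach-only and 33.0% of KO-only regions. The corresponding gene-end shares were 5.52% where hindstomach was paired with forestomach, 10.00% where KO was paired with E13 stomach, and 8.32% over all regions. The members' share lay above that of hindstomach alone under every setting tried. Its order against all regions was not stable. It was 5.58% against 6.06% with a window of 500 bp, 16.8% against 12.7% with 2.5 kb, and 7.39% against 7.53% with peaks up to 200 bp apart merged.

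Among the 21 pairs of libraries, hindstomach and KO ranked the fifth by number of regions held by exactly that pair. Colon with intestine had 11817, E13 stomach with KO 9264, forestomach with hindstomach 6486 and colon with hindstomach 5251, ahead of the 3403. Forestomach with KO had 1089, intestine with KO 746 and colon with KO 576. When a single further library was allowed, hindstomach and KO shared 3734 regions with forestomach, 2704 with E13 stomach, 597 with E13 intestine, 518 with intestine and 276 with colon.

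These counts depend on how many private regions each tissue had, so each wild-type library was also read against its own. Of 20330 hindstomach regions that no other wild-type library held, 16.7% (16.2 to 17.3) had a KO peak. The same share was 27.2% (26.8 to 27.7) for E13 stomach and 11% for E13 intestine. It was 8.32% (7.86 to 8.81) for forestomach, 3.42% for intestine and 1.03% (0.951 to 1.12) for colon. Hindstomach thus stood highest of the 4 E16 tissues and below E13 stomach, and this order also held with only the widest peaks of each list and with peaks up to 200 bp apart merged. Seen from the KO side, 3403 of 32525 KO regions absent from the other 5 lists had a hindstomach peak, which is 10.5% (10.1 to 10.8). The highest such share was that of forestomach regions, 35.1% of which had a hindstomach peak.

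**Figure D2:**
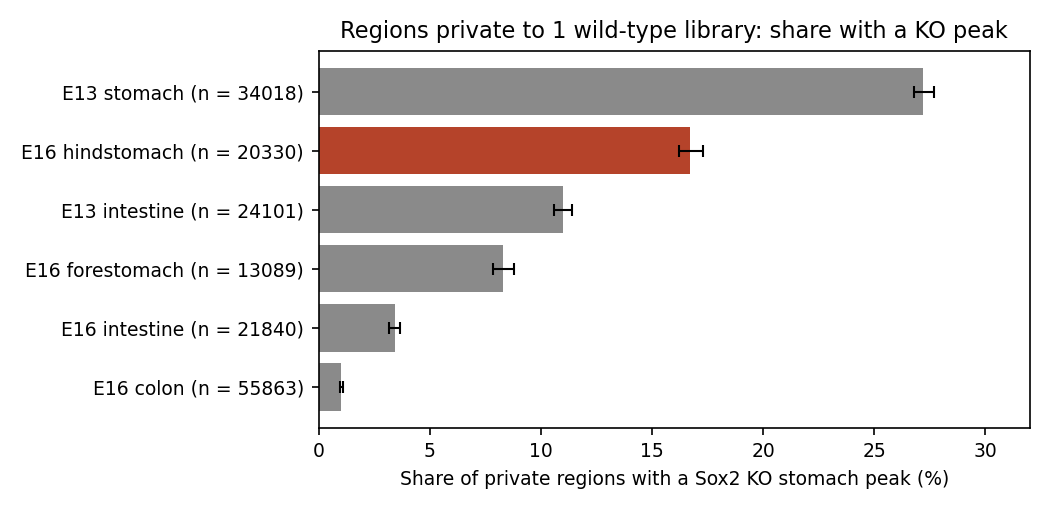
Share of the regions private to each wild-type library (held by no other wild-type library) that had a KO peak, in percent, with the number of private regions in brackets. Bars are shares and whiskers 95% Wilson intervals, which cover counting error only. Hindstomach (red) stands at 16.7%, between E13 stomach at 27.2% and E13 intestine at 11%.

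Members were narrow peaks. The median hindstomach peak in a member was 117 bp wide (quartiles 94.0 and 155), against 147 bp over all hindstomach peaks and 99.0 bp in regions of hindstomach alone. The median KO peak was 119 bp (85.0 and 171), against 153 bp over all KO peaks and 102 bp in regions of KO alone. On both sides the shared regions lay between the library's private regions and its whole list. The hindstomach peak was wider in 1787 members and the KO peak in 1595.

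The peaks of a member overlapped by a median of 89 bp (71.0 and 111), and in 3130 members (92.0%) the overlap was at least 50% of the shorter peak. The KO peak lay inside the hindstomach peak in 23.7% of members and the reverse held in 21.3%. At the edge of the rule, 35 members (1.03%) had an overlap of 10 bp or less. Just outside it, 31 regions of hindstomach alone lay within 10 bp of a region of KO alone, and 291 within 200 bp. At Sipa1l1, a Rap GTPase regulator, 1 member rested on an overlap of 2 bp. At Spry2, a feedback inhibitor of receptor tyrosine kinases, 1 of its 3 members rested on 8 bp.

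The width of the hindstomach peak went with the presence of a KO peak. Among hindstomach-private regions with the minimum width of 89 bp, 658 of 6807 (9.67%, 8.99 to 10.4) had a KO peak. The share was 18.1% at 100 to 124 bp, 23.8% at 150 to 199 bp, 30.0% (27.3 to 32.9) at 200 to 299 bp and 51.4% (42.1 to 60.6), 56 of 109, from 300 bp on. It also differed by position, with 25.9% (23.5 to 28.4) at gene ends and 16.2% (15.6 to 16.7) elsewhere, and 19.6% in gene bodies against 14.2% outside. Width is the one readout the lists hold besides position. Whether it follows signal strength or depth was not tested.

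**Figure D3:**
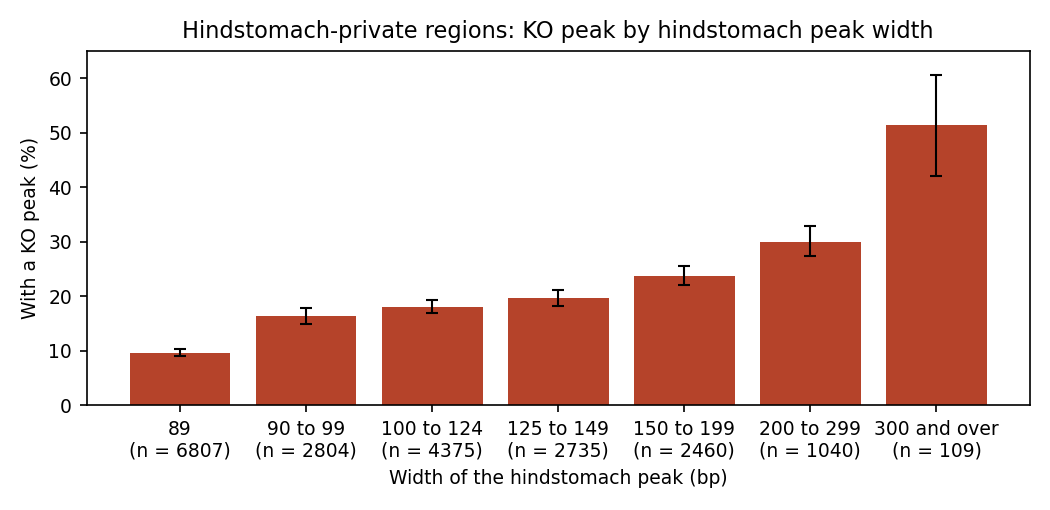
Share of hindstomach-private regions with a KO peak (y axis, percent) by width of the hindstomach peak (x axis, bp, with the number of regions). Bars are shares and whiskers 95% Wilson intervals; the share runs from 9.67% at the minimum width to 51.4% at 300 bp and over.

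The 10 members with the longest overlap had between 298 and 427 bp under both peaks. The longest lay on chromosome 10 at 30255093 to 30255672, 54.5 kb from Cenpw, a kinetochore gene. There the KO peak of 579 bp enclosed a hindstomach peak of 427 bp. Others lay in the gene bodies of Optn, an autophagy receptor (380 bp of overlap), Slc35e3 (351 bp), Cacna1h, a T-type calcium channel (326 bp), Limk2, a kinase of actin dynamics (321 bp), Tmprss7, a membrane serine protease (310 bp), Pgap3, a GPI-anchor remodelling enzyme (307 bp), and Nfatc1, a calcineurin-dependent transcription factor (298 bp). None of the 10 lay within 1 kb of a gene end.

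Peaks of other tissues lay close to members about as often as to regions of KO alone, although by the rule no member overlapped one. A peak of at least 1 of the other 5 libraries lay within 200 bp of 11% of members, within 1 kb of 36.1% and within 10 kb of 95.1%, at a median distance of 1883 bp. A peak of E13 stomach lay within 1 kb of 19% of members, of forestomach 17.5%, of colon 15.3%, of intestine 13.8% and of E13 intestine 12.9%. At the longer range colon led, with a peak within 10 kb of 76.7% of members and a median distance of 4872 bp, against 69.3% and 5524 bp for E13 stomach. Colon also led for regions of hindstomach alone (69.8%) and of KO alone (73.8%), and its list was the longest, at 135743 peaks. Regions of hindstomach alone were a little more isolated, with 30.6% within 1 kb of any such peak. Regions open in all 7 libraries lay within 10 kb of 20.6% of members, against 13.5% of hindstomach-only and 14.9% of KO-only regions.

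The share of regions that were members varied between chromosomes. It was highest on chromosome 11, with 230 members or 1.31% (1.15 to 1.49), and chromosome 17, with 168 or 1.29% (1.11 to 1.5). It was lowest on X, with 68 or 0.696% (0.549 to 0.881), and on chromosome 1, with 205 or 0.847% (0.740 to 0.971), whose intervals did not overlap that of chromosome 11. Of the hindstomach-private regions on X, 12.1% had a KO peak. The KO library had the fewest chromosome Y peaks, as given above, and the part of the embryos' sex in the X value was not tested.

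Members were scattered, with a median of 157 kb to the next member, and 366 (10.8%) lay within 20 kb of another. Only 10 runs had 3 or more members with gaps under 20 kb. The longest run lay on chromosome 17 from 35186327 to 35227992, where 4 of 11 regions were members, near the immune genes Lst1, Lta and Nfkbil1. A run on chromosome 6 from 38072524 to 38109662 held 4 members among 8 regions. All 4 lay in the gene body of Atp6v0a4, but 1 also lay in the shorter gene Tmem213 and was assigned to it. In runs near Stt3b on chromosome 9 and near Ndrg1 and St3gal1 on chromosome 15, 3 of 4 regions were members.

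Regions were linked to the closest protein-coding gene within 100 kb, which placed 3108 members (91.3%), or 1.17% of 264687 assigned regions. Of 20552 genes with a region, 2628 (12.8%) had at least 1 member and 391 (1.90%) at least 2. They divided into 2237 genes with 1 member, 319 with 2, 58 with 3 and 14 with 4 or more. The genes with 4 or more were long, at a median of 337 kb against 49.1 kb for genes with a member and 18.8 kb for all genes with a region. Zfhx3, a large homeodomain and zinc finger transcription factor gene, had 6 members among 166 regions. Tiam1, an activator of the GTPase RAC1, had 5 among 105.

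The other genes with 4 members were Rbms3, Auts2, Maml3, Kirrel3, Fndc3b, Stk39, Tns3, Sipa1l1, Trappc9, Arhgef3, Chst11 and Shisa6. Pde4d, a cyclic AMP phosphodiesterase gene, had 3 among 211. Most of them had many regions in every tissue, such as Rbms3 with 235 and Auts2 with 213, so their members were 1.70% and 1.88% of their regions. Chst11, a chondroitin sulphotransferase gene, and Shisa6, an AMPA receptor auxiliary protein gene, differed from these in that all 4 of their hindstomach-private regions had a KO peak. Shisa6 had 6 hindstomach regions in all, the fewest of any library, against 18 in colon, 13 in intestine, 13 in KO, 11 in E13 stomach, 10 in forestomach and 9 in E13 intestine. Thus 4 of the 6 open Shisa6 regions in the hindstomach were members.

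Among genes with at least 10 regions, Atp6v0a4 had the highest member share with several others, at 3 of 15. Atp6v0a4 encodes a subunit of the vacuolar proton pump that is best known from acid-secreting cells of the kidney. It had 10 regions in hindstomach and 9 in KO, against 5 in E13 stomach, 3 in forestomach, 3 in E13 intestine, 2 in colon and 0 in intestine. By the rule its 3 members count toward hindstomach and KO alone, so these counts are a description. Its members lay at 38072524 to 38072681, 38087734 to 38087927 and 38106024 to 38106233 on chromosome 6, all in the gene body (38048483 to 38124586).

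Tsc22d3, a glucocorticoid-induced gene on X, had 3 members among 17 regions (17.6%), with 9 regions in hindstomach and 11 in KO and between 2 and 5 in the other libraries. Here too the members add to the hindstomach and KO counts alone. Cbr1, Cldn12, Fhl1, Kctd14, Mrpl13 and Zfp946 had 2 of 10 each, Dgcr6 2 of 11 and Bcl7a 2 of 12. Several of these are paired neighbours rather than spread sites. Both Kctd14 members lay between 97453139 and 97453954 on chromosome 7, and both Cldn12 members, near a claudin gene, between 5494735 and 5495271 on chromosome 5.

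**Figure D4:**
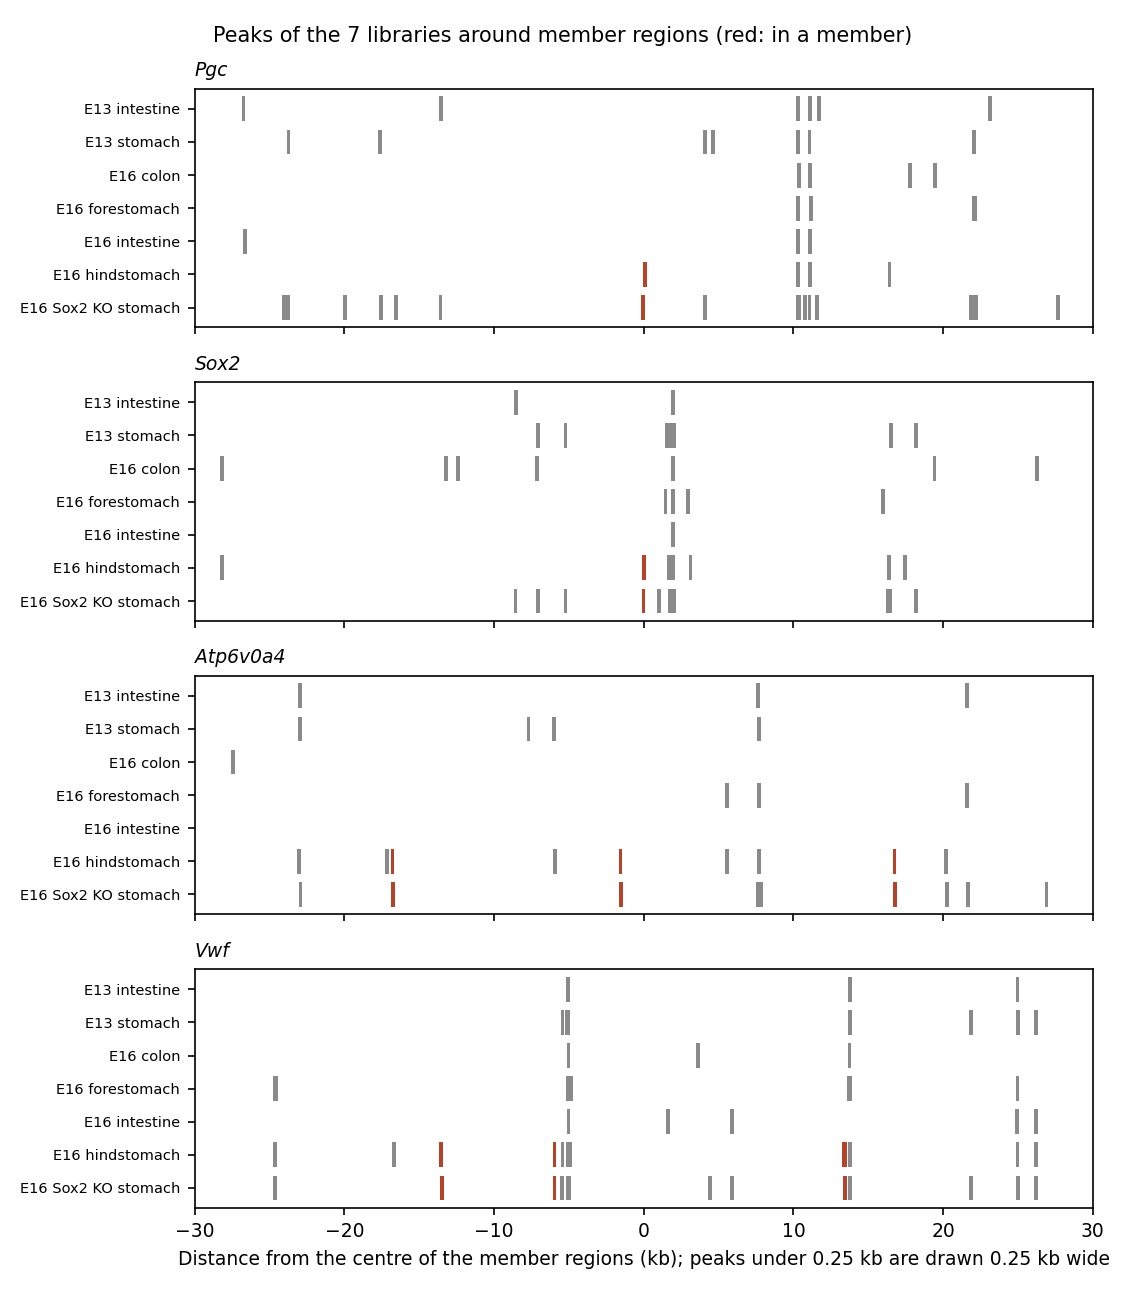
Peaks of the 7 libraries (rows) around the members at Pgc, Sox2, Atp6v0a4 and Vwf, by distance in kb from the centre of the members (x axis). Red marks are peaks in members assigned to the named gene and grey marks all other peaks, drawn at least 0.25 kb wide. The member in Atp6v0a4 that was assigned to Tmem213 is therefore grey. By the rule, red marks appear in the hindstomach and KO rows alone. The intestine row of Atp6v0a4 is empty.

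Sox2, the gene named in the KO label, had 1 member among 39 regions. It lay at 34647865 to 34648005 on chromosome 3, 1990 bp outside the gene body, where the hindstomach peak of 140 bp enclosed a KO peak of 79 bp. The number of Sox2 regions was 18 in colon, 13 in KO, 12 in hindstomach, 9 in E13 stomach, 8 in forestomach, 8 in intestine and 3 in E13 intestine. The merged region across the edge of the Sox2 gene body (34649301 to 34650097) held a peak of all 7 libraries, the KO included. Within it, peaks of E13 stomach, KO and, by a few bases, hindstomach reached the gene body. Those of the other libraries ended short of it. A region in the gene body (34650802 to 34651107) was open in forestomach and hindstomach alone. There the forestomach peak (2867 to 3086 bp from the centre of the member) met the hindstomach peak (3083 to 3172 bp) only at its edge. This hindstomach peak had the list's minimum width of 89 bp. Peak positions show neither which bases an allele lacks nor how much RNA is made, so they do not check the KO label. Cdx2, the intestinal counterpart, had 6 regions and no member.

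Listed genes were read by how many of their hindstomach-private regions had a KO peak, against 18.4% (17.8 to 19) over all protein-coding genes, and by the member share of all their regions, against 1.17%. Over the 24 lists together 117 of 479 hindstomach-private regions had one, 24.4% (20.8 to 28.5). A member was present at 98 of 441 genes (22.2%), against 12.8% of all genes with a region. The listed genes held 8339 regions over 441 genes, and all genes 264687 over 20552. The part of region number in the gene counts was not tested. The median member share per gene was 0 over all genes and in every list but the Wnt list. Regions of a gene are not replicates, so these shares were not tested.

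Genes of glandular stomach function stood close to all genes, with members making up 1.52% (0.517 to 4.36) of their regions. Gkn3, a gastrokine gene, Tff2, a mucosal trefoil peptide gene, and Pgc had 1 each, and the list had 3 of 20 private regions with a KO peak (15.0%, 5.24 to 36.0). Cldn18 and Anxa10, both marks of gastric epithelium, had none among 22 and 29 regions. Both genes had regions with a hindstomach and a KO peak that failed the rule because a further library had one. Examples with a forestomach peak were 99717026 to 99717562 on chromosome 9 for Cldn18 and 62123064 to 62123454 on chromosome 8 for Anxa10. Of the stomach transcription factors Sox2, Sox21 and Rfx6 had 1 member each, 3 of 22 private regions (13.6%). Squamous genes, which mark the forestomach, had 0 of 11 private regions with a KO peak, with an upper bound of 25.9%, and 0 of 210 regions in all, with an upper bound of 1.80%.

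Intestinal transcription factors had 3 of 10 private regions with a KO peak (30.0%, 10.8 to 60.3) and 1.34% of 224 regions, and both intervals included the value over all genes. Hnf4a and Hnf4g, nuclear receptors of endodermal epithelium, had 1 member each among 21 and 28 regions, and Hnf4g is the one of them on this list. Nr1i2, the xenobiotic receptor PXR, had a member 795 bp outside the gene, with peaks of 234 bp in hindstomach and 225 bp in KO that shared 215 bp. Nr1h4, the bile acid receptor, had 1. Enterocyte genes had 3 of 13 (23.1%, 8.18 to 50.3), 2 near Enpep, a brush border peptidase, and 1 near Slc15a1, the peptide transporter.

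For several lists the private share lay above that of all genes while the share of all regions did not clear it. Pan-epithelial genes had 7 of 16 private regions with a KO peak (43.8%, 23.1 to 66.8), with 2 members in Grhl2, a grainyhead transcription factor, and members also at Epcam, Cdh1, Esrp1 and Ovol2. Both Grhl2 members lay in the gene body within 1 kb of each other, at 37242461 to 37242623 and 37243104 to 37243322 on chromosome 15. Secretory and endocrine genes had 4 of 6 (66.7%, 30.0 to 90.3), 1 each near Gfi1, Pax6, Isl1 and Ghrl. Ghrl encodes ghrelin, the hormone of gastric endocrine cells, and Pax6 and Isl1 are transcription factors of endocrine cells. As a share of all regions members were 2.41% (1.17 to 4.90) for pan-epithelial and 2.29% (0.892 to 5.73) for secretory genes, and both lists rest on few regions.

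Among signalling pathways the Wnt list held the most members, 19 among 808 regions (2.35%), and 19 of 56 private regions had a KO peak (33.9%, 22.9 to 47.0). A member was found at 16 of 26 genes (61.5%), against 12.8% of all genes with a region. The median member share per gene was 2.54%. These 26 genes held 808 regions, against 264687 regions over 20552 genes in all. The part of region number in these gene-level values was not tested. Smoc2, a matricellular protein of intestinal stem cells, Tcf7l2, a Wnt-responsive transcription factor, and the cyclin gene Ccnd1 had 2 each. The remainder spanned receptors and feedback regulators (Lgr4, Axin2, Rnf43, Tnfrsf19, Fzd7), transcription factors (Tcf7, Tcf7l1, Lef1, Sox9), ligands (Wnt4, Wnt11) and secreted antagonists (Sfrp2, Dkk1). The members at Tcf7l1 and Dkk1 lay within 1 kb of a gene end. With only the widest peaks of each list the Wnt share was 1.14% against 0.799% over all genes.

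FGF and EGF genes had a member at 10 of 22 genes (45.5%), against 12.8% of all genes with a region. Of their private regions 12 of 38 had a KO peak (31.6%, 19.1 to 47.5). Members were 1.84% (1.06 to 3.19) of all their regions. These included the ligands Fgf2, Areg and Tgfa, the receptors Fgfr2, Fgfr4 and Egfr, and the ERK-responsive genes Spry2, Spry4, Etv4 and Etv5. BMP and TGF-beta genes had 12 of 50 (24.0%, 14.3 to 37.4), with 3 members at Smad2 and 2 at Smad3, the transducers of TGF-beta signals, and 1 within 1 kb of an end of Id3, a BMP target. Notch genes had 7 of 27 (25.9%), of which 4 lay at the coactivator gene Maml3 and 2 at the receptor gene Notch3. Retinoic acid genes had 6 of 26 (23.1%), at the synthesising enzymes Aldh1a2 and Aldh1a3, the degrading enzymes Cyp26a1 and Cyp26b1 and the receptors Rarb and Rxrg.

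Hedgehog genes had 4 of 17 (23.5%), 1 each at Smo, Gli2, Gli3 and Cdon, genes that act in the receiving cell. YAP, TAZ and TEAD genes had 3 of 24 (12.5%, 4.34 to 31.0). Tight junction and adhesion genes had 3 of 32 (9.38%, 3.24 to 24.2), 2 near Cldn12 and 1 at Lamb3. AP-1 and immediate early genes had 4 of 14 (28.6%), at Jun, Junb, Fosl2 and Ier3. Housekeeping genes had 2 of 12 (16.7%).

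Members also lay near genes of other cell types. Endothelial genes had 10 of 29 private regions with a KO peak (34.5%, 19.9 to 52.7) and 2.73% of 366 regions, with 3 members in Vwf, the blood clotting factor gene, 2 near Emcn and 1 each at Pecam1, Flt1, Flt4, Fli1 and Esam. With only the widest peaks the share of all regions was 1.05%. The Vwf members lay in the gene body between 125564863 and 125592003 on chromosome 6, and 2 of them lay within 1 kb of regions open in 6 or 7 libraries. Gene-end peaks were present at 7 of 15 endothelial markers in the hindstomach and 9 of 15 in the KO, and at 4 to 8 in the other libraries. Pecam1, Cdh5, Tek, Tie1, Emcn and Fli1 had none in hindstomach or KO, and Pecam1, Cdh5, Emcn and Fli1 had none in any library. The part of these markers' openness in the share was not tested.

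Neural crest and neuronal genes had 5 of 11 (45.5%, 21.3 to 72.0), among them 1 each at Ednrb, Hand2, Foxd3 and S100b, and 1.89% (0.809 to 4.34) of all regions. The gene-end count of these markers was 14 of 15 in the KO, 12 in both E13 libraries, 8 in hindstomach and 7 in the other E16 libraries, and its part in this share was not tested. Mesenchymal genes had 2 of 12 (16.7%), at Myh11 and Foxf1, blood and immune genes 1 of 9 (11.1%), at Itgam, and liver, lung and pancreas genes 1 of 11 (9.09%), at Ins1. The intervals of the mesenchymal, blood and liver lists included 18.4%.

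**Figure D5:**
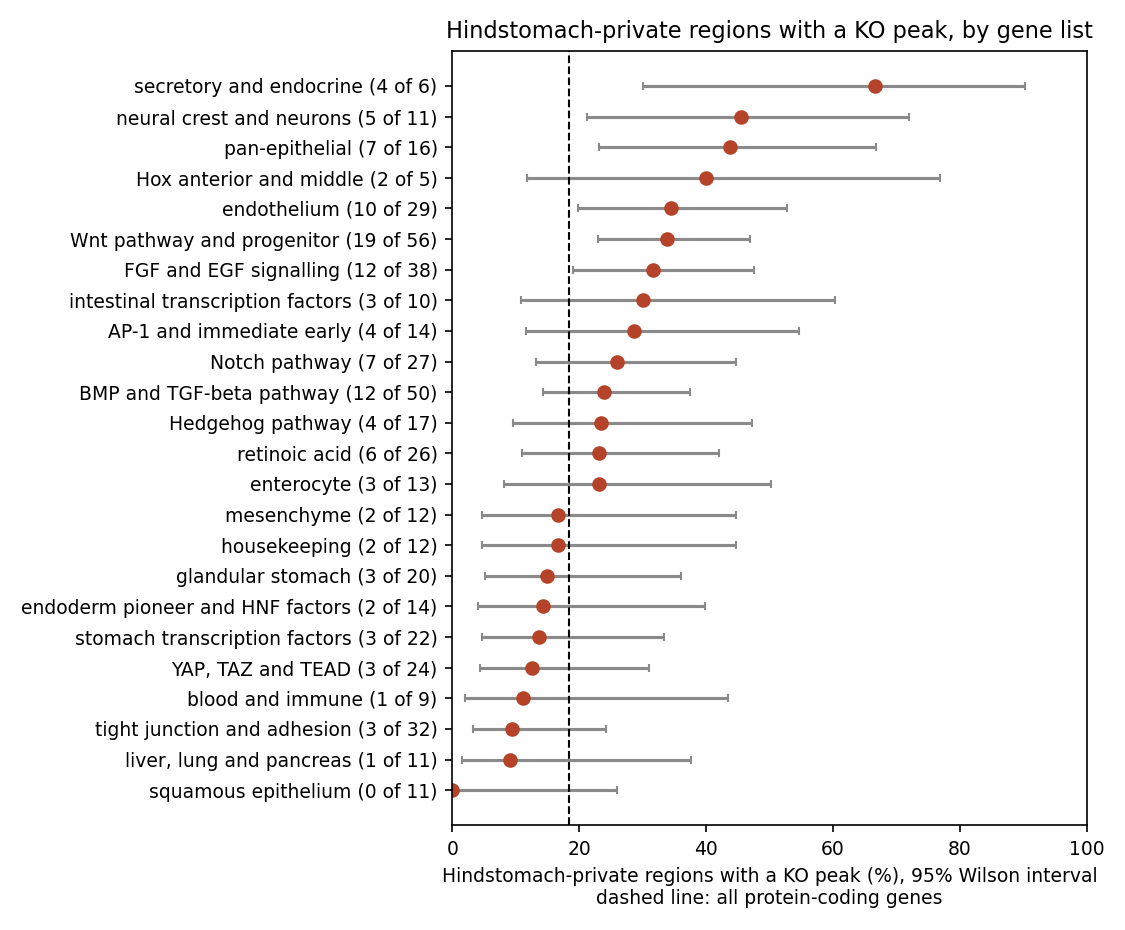
Share of hindstomach-private regions with a KO peak (x axis, percent) for the 24 gene lists, with the number of such regions in brackets. Points are shares, whiskers 95% Wilson intervals and the dashed line the 18.4% over all protein-coding genes. The intervals of the secretory, neural crest, pan-epithelial, endothelial, Wnt, and FGF and EGF lists lie to the right of the line, and none lies wholly to the left. Over all listed genes together the share was 24.4%. Among the lists named here, only the secretory interval left that value out.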

How the data were processed

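ATAC-seq peak lists of 7 libraries, 1 per group by the sample titles, were analysed. The deposited files hold chromosome, start and end of each peak and no height, score or count, and per the submitters' processing notes cutadapt, Bowtie2, MACS2 and GRCm38/mm10 were used. Versions, thresholds and pooling are unstated in the sources used here. It is not stated whether positions count from 0 or 1, and they are printed as deposited.

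Peaks on the 19 autosomes and X were merged at 1 bp of overlap. Regions were linked to the closest protein-coding gene within 100 kb in the RefSeq GRCm38.p6 gene table (21631 genes). A region equally close to several genes, such as inside nested genes, went to the shortest. It gives no strand, so a gene end is either end, within 1 kb, and starts and sequences came from 32619 RefSeq promoter windows. Distal sequences were not analysed here. Of 451 listed gene entries 445 were found.

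The members and the 24 gene lists were chosen with earlier results of these data known. Genes named are those with the most members (15) or the highest member share with at least 10 regions (10), listed genes with 2 members or 1 at a gene end, Sox2 and Cdx2. Listed genes with 1 member elsewhere are named after their values were seen. A few listed genes are not reported here by name.

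Shares have 95% Wilson intervals. No test between groups was made. The merging and counting steps were tested on simulated data. Python 3.11.15, numpy 2.4.6, pandas 2.3.3, scipy 1.17.1 and matplotlib 3.10.9 were used.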

Additional observations from a re-analysis of the deposited data

How the results depend on the processing

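The 3403 members became 1737 when lists were trimmed to equal length by keeping their widest peaks. They became 6107 when a peak in E13 stomach was allowed and 7137 when one in forestomach was allowed. The other settings gave between 3130 and 4000. The gene-end share of 9.29% was 5.58% with a window of 500 bp, 16.8% with 2.5 kb, 7.39% with peaks up to 200 bp apart merged and 10.5% with the widest peaks. Regions of hindstomach alone stood lower each time, at 2.62%, 10.2%, 3.90% and 5.95%. The share of 16.7% of hindstomach-private regions with a KO peak was 15.4% with an overlap of 50% of the shorter peak, 18.1% with merging over 200 bp and 15.7% with the widest peaks, alternatives chosen after seeing the data. Members were 1.40% of the regions of all listed genes and 1.02% with the widest peaks, where all protein-coding genes stood at 0.799%. Of 72 alternatives for single lists 4 moved the share beyond its interval, all with the widest peaks: Wnt (1.14%), retinoic acid (0.619%), endothelium (1.05%) and liver, lung and pancreas (0). With an overlap of at least 50% the median widths were 118 bp in hindstomach and 120 bp in KO. The cause of these shifts was not tested. No paired analysis was possible because each group had 1 library, and for the same reason no library could be left out of a group. Peak heights and depth are unknown, so a peak missing from a list cannot be told apart from one below its threshold.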

Other observations

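Long non-coding RNAs accounted for 38 of the 95 promoter windows that members touched, against 831 of the 8099 windows open in all 7 libraries and 11574 of all 32619. The share among the members' windows was thus close to that of the whole table.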
